A study of Mus musculus with 22 samples.

Results

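Ifitm1, Ifitm2 and Ifitm3 are the interferon-induced transmembrane genes described here, 3 genes taken by name from the 52636 genes measured in mouse duodenal organoids treated with cold atmospheric plasma (CAP). Their proteins sit in the plasma membrane and in endosomes, where they hinder enveloped viruses from fusing with the cell. Interferons bind their receptors and, through JAK kinases and STAT factors, switch on response elements in the promoters of such genes. In the intestine, Ifitm genes are also known as genes of the crypt, where Wnt signalling is active. Ifitm2 and Ifitm3 were among the genes the study chose to show from these same libraries, so their direction here is not independent evidence.

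RNA was sequenced from 22 libraries, 4 untreated and 3 in each of 6 treated groups. The organoids, cultures grown from intestinal crypts, came from wild-type adult mice of the outbred CD1 strain, aged 2 months. Lines 1 to 4 denote the organoid lines, at passages 12, 14, 4 and 4 per the labels. For the last pair of lines the paper's methods name an earlier passage. All 4 lines gave an untreated library, and lines 1, 2 and 4 gave 1 library in each treated group. A helium plasma jet was run at 50 W for 60 s and cultures ended at day 3. Direct CAP was applied to the culture itself, and the medium was changed 30 min or 24 h later. Indirect CAP organoids received medium from a treated culture, and PAM (plasma-activated medium) organoids received medium treated without cells, starting at day 1 or at day 2. By the paper's figure legends, groups started at day 1 got newly made medium, then fresh culture medium from day 2 until day 3. Those started at day 2 got medium made at day 1 and kept it until day 3. The labels name 30 min for both groups started at day 1 and 24 h for both started at day 2. They do not say what this time measures. The paper's figure legends give 24 h of exposure for all of them, which is followed here. The exposure of the groups started at day 1 is therefore uncertain.

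Values are reads per 20 M counted reads (M, mega), not divided by gene length unless "per kilobase" is stated. The libraries held an estimated 19.7 to 28.65 M reads on genes. The labels call the cells stem cells from epithelium. Epithelial markers (Epcam, Vil1, Cdh1, Krt8, Krt20, Cdx2) summed to between 77655 and 127660 in every library. The 6 immune markers summed to 278 to 384 untreated and 254 to 378 over the treated groups, of which the untreated mean of Csf1r was 261 ± 5.91 (SD, n = 4). The 6 stromal and endothelial markers summed to 23 to 44 untreated and 21 to 66 treated. Library deviations from their group means followed the line, but the untreated libraries of lines 1 and 2 did not follow their labels well. The median correlation of the library labelled line 1 was 0.0751 with the treated libraries of line 1 and 0.541 with those of line 2. The library labelled line 2 gave 0.132 with line 2 and 0.353 with line 1. Comparisons by group do not use the line, and values within a line are therefore given beside the range of all untreated libraries.

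The 3 genes lie on chromosome 7 of the mouse genome GRCm38 within 55.9 kb (chr7:140954837-141010770). Ifitm2 (ENSMUSG00000060591, chr7:140954837-140955987) and Ifitm3 (ENSMUSG00000025492, chr7:141009586-141010770) are on the minus strand with 2 exons each. Ifitm1 (ENSMUSG00000025491, chr7:140967221-140969825) lies between them on the plus strand, with 3 exon blocks. The exons of Ifitm2 overlap those of the gene model Gm45717, and 30.4% of the 100-base windows of the Ifitm2 transcript also occur in Gm45717. The value of Gm45717 was 0.71 to 0.756 times that of Ifitm2 in all 22 libraries. Reads from the shared stretch cannot be assigned to 1 gene of this pair by sequence. How they were counted is not known, so the Ifitm2 level is uncertain. The pseudogenes Gm8865 and Gm11951 share further windows, 34.9% in all, and reached values of at most 4. No 100-base window of Ifitm1 or Ifitm3 occurs in the transcript of another gene.

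Because these genes are known for their response to interferon, the sequence before Ifitm2 and Ifitm3 is shown with the response elements found in it. Motifs were searched on both strands from 250 bases before to 50 bases after the RefSeq start (GRCm38.p6). The GENCODE starts of both genes lie 26 bases before the RefSeq starts, and the stretches below end at the GENCODE start. Capitals mark a match to the interferon-stimulated response element, searched as GAAA, any 2 bases and GAAA again, in Ifitm2, and to TGANTCA, the AP-1 site, in Ifitm3.
Ifitm2, chr7:140955988-140956211, minus strand: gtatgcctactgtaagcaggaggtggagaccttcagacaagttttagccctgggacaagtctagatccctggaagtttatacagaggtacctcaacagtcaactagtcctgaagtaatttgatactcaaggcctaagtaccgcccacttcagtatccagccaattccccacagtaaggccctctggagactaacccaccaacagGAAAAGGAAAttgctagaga
Ifitm3, chr7:141010771-141010994, minus strand: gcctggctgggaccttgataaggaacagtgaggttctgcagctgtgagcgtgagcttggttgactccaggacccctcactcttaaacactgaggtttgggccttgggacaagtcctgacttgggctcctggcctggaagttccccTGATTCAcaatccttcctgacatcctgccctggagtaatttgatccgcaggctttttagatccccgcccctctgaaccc

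In Ifitm3 the interferon elements lie just after the RefSeq start, within its first 30 bases, shown next with all matches in capitals.
Ifitm3, chr7:141010715-141010744, minus strand: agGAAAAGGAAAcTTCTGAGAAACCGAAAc
These are matches to the interferon-stimulated response element at bases 3 to 12 and 20 to 29 and, overlapping the latter, a TTCNNNGAA match (the STAT site) at bases 14 to 22. Of the 32851 promoters of the table, 3.44% held the interferon-stimulated response element and 8.3% TTCNNNGAA in the whole window of 300 bases. In the 250 bases before the start, this element was found in 2.98% of promoters and TGANTCA in 6.75%. CTTTGAT, the TCF/LEF site bound downstream of Wnt signalling, was found in 3.21% of promoters and in none of the 3 genes. Ifitm1 held none of the 4 motifs, but its RefSeq start lies inside the longer GENCODE gene.

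In untreated organoids Ifitm2 and Ifitm3 were well expressed and Ifitm1 was barely detected. Per kilobase of exon the levels were 2185 ± 353 for Ifitm2, 1110 ± 104 for Ifitm3 and 5.71 ± 1.37 for Ifitm1 (SD, n = 4). The relatives were near the limit of detection in all 22 libraries, with Ifitm5 at 1 to 13, Ifitm6 at 0 to 2, Ifitm7 at 0 or 1 and Ifitm10 at 0 to 10, and none was tested for the main comparison.

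Ifitm2 and Ifitm3 were downregulated in 4 of the 5 groups exposed for longer than 30 min, and were not called in the other, indirect CAP from day 1. Ifitm3 fell further than Ifitm2. Ifitm3, known for restricting influenza virus, had values of 820, 675, 804 and 711 in untreated lines 1 to 4. In lines 1, 2 and 4 respectively, it had values of 198, 276 and 116 when direct CAP lasted 24 h, 390, 334 and 97 with indirect CAP from day 1, and 18, 53 and 42 with PAM from day 1. All 9 libraries were below all 4 untreated ones, and the 3 PAM libraries were below the other 6. Ifitm2, its close relative, had values of 1756, 1291, 1434 and 1243 in untreated lines 1 to 4. In lines 1, 2 and 4 it had values of 661, 785 and 471 when direct CAP lasted 24 h, 796, 862 and 444 with indirect CAP from day 1, and 373, 491 and 307 with PAM from day 1. Again the groups did not overlap, though the Ifitm2 values of PAM reached into those of the other treated groups.

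**Figure D1:**
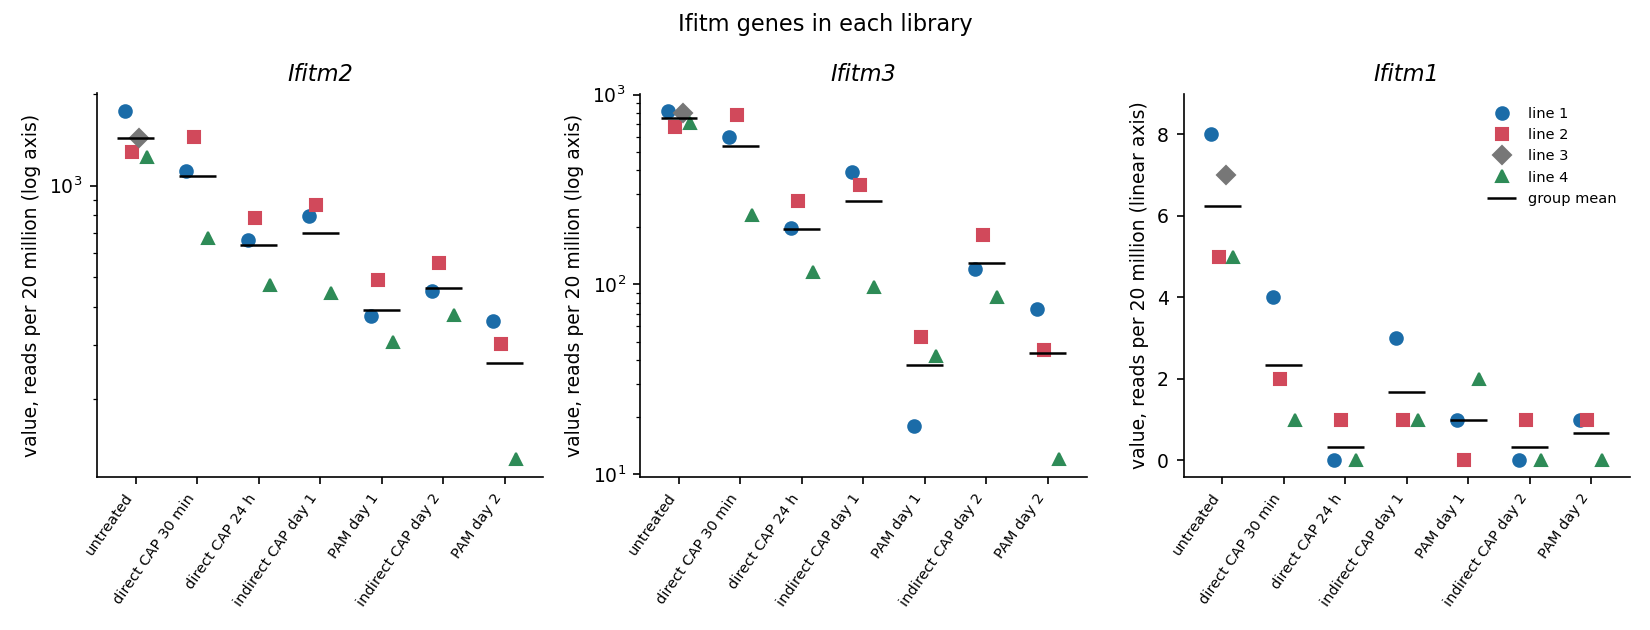
Values of Ifitm2, Ifitm3 (log axes) and Ifitm1 (linear axis) in reads per 20 M for each library, by group, with the organoid line as colour and symbol and the group mean as a bar. Ifitm2 and Ifitm3 have their highest group mean in the untreated libraries and their lowest in the PAM groups. Line 4 is the lowest Ifitm3 library in 5 of the 6 treated groups.

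Over the 9 libraries of CAP for 24 h from day 1 against the 4 untreated ones, Ifitm3 fell by 2.70 on the log2 scale (SE 0.67, 6.5-fold, limma adjusted p = 0.00727) and Ifitm2 fell by 1.38 (SE 0.25, 2.6-fold, limma adjusted p = 0.00129). A call needed an adjusted p under 0.01 together with a 2-fold change or more, fitted on log2(value + 1). This rule called 2.07% of the 18490 genes tested lower and 4.27% higher, and in 10.5% of them all treated libraries lay below all untreated ones. Ifitm3 ranked 41 from the lowest fold change. With the line as a replicate block its difference was -2.67 with an adjusted p of 0.021, and it also missed the threshold without any 1 of the untreated libraries (adjusted p 0.02 to 0.0247), without the line 4 library of direct CAP for 24 h (0.0104) or of indirect CAP (0.0128), and without the PAM library of line 4 (0.012) or line 2 (0.0128). With only the untreated libraries of lines 3 and 4, a choice made after seeing the data, the differences were -1.29 for Ifitm2 (adjusted p = 0.0342) and -2.71 for Ifitm3 (adjusted p = 0.0765), and neither was called.

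After direct CAP for 30 min, neither gene passed the test. Ifitm3 had values of 600, 780 and 231 and Ifitm2 of 1114, 1440 and 673 in lines 1, 2 and 4. The library of line 4 stood well below its 2 companions, which were within or near the untreated range. The differences were -0.47 (95% interval -1.01 to 0.08, adjusted p = 0.26) for Ifitm2 and -0.65 (-1.46 to 0.16, adjusted p = 0.285) for Ifitm3 by limma, where 0% of genes were called lower and 0.00564% higher although 4415 of 17731 had an unadjusted p under 0.05. Without the line 4 library they were -0.16 and -0.13. The same line 4 library had the highest Oasl1 value of the group, 1415 against 225 and 359, and the lowest Lgr5 value, 747 against 1591 and 2171.

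Direct CAP for 24 h downregulated both genes. Ifitm3 fell by 2.01 (SE 0.26, adjusted p = 0.00395) and Ifitm2 by 1.18 (SE 0.19, adjusted p = 0.0066), where limma called 0.917% of genes lower. When all 7 groups shared one estimate of the spread, the adjusted p was 0.0243 for Ifitm3 and 0.0211 for Ifitm2, so the calls depend on that choice. Without any 1 of the untreated libraries the adjusted p was 0.0166 to 0.0202 for Ifitm2 and 0.011 to 0.0141 for Ifitm3. It was 0.0245 and 0.017 without the treated library of line 1, and 0.0116 for Ifitm2 without that of line 4. Set directly against direct CAP for 30 min, Ifitm3 differed by -1.36 (adjusted p = 0.207) and Ifitm2 by -0.71 (adjusted p = 0.226), and 0% of genes were called lower although 3774 had an unadjusted p under 0.05. With the line as a replicate block the Ifitm3 difference of -1.36 was called (adjusted p = 0.00451), where 0.583% of genes were called lower.

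With indirect CAP from day 1 both genes stayed outside the call. All 3 libraries lay below the untreated range for each gene, as they did for 17.7% of all genes tested. Ifitm3 differed by -1.68 (SE 0.42, adjusted p = 0.0267) and Ifitm2 by -1.07 (SE 0.23, adjusted p = 0.0172), where 0.477% of genes were called lower. Without the line 4 library, in which Ifitm3 was 97, the Ifitm3 difference was -1.05 with a smaller spread and was called (adjusted p = 0.00582). Against direct CAP for 24 h, Ifitm3 differed by 0.33 (95% interval -0.94 to 1.60) and Ifitm2 by 0.11 (-0.56 to 0.77), with 0% of genes called lower by limma and 1228 at an unadjusted p under 0.05. These intervals leave room for a difference either way.

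PAM from day 1 downregulated both genes. Ifitm3 fell by 4.41 (SE 0.32, 21.25-fold, adjusted p = 8.47e-05), the 18th lowest fold change of 17357 genes, and Ifitm2 fell by 1.89 (SE 0.18, 3.7-fold, adjusted p = 0.000213), where 5.4% of genes were called lower. Within their own lines, the Ifitm3 values were 2.2%, 7.85% and 5.91% of the untreated library in lines 1, 2 and 4. Direct CAP for 24 h left 24.1%, 40.9% and 16.3% in the same lines. Set against direct CAP for 24 h, Ifitm3 was lower in all 3 libraries (18, 53 and 42 against 198, 276 and 116), a difference of -2.40 (SE 0.46, adjusted p = 0.181) that ranked 7 from the lowest. In 10.5% of all genes the 3 libraries of PAM were likewise all lower. Here limma called 0% of genes lower, with 1773 at an unadjusted p under 0.05. With the line as a replicate block the difference of -2.40 was called (adjusted p = 0.00604), where 0.281% of genes were called lower. This block does not rest on the untreated libraries.

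Both genes also fell when exposure started at day 2. With indirect CAP from day 2, the values in lines 1, 2 and 4 were 120, 182 and 86 for Ifitm3 and 450, 558 and 377 for Ifitm2. Ifitm3 fell by 2.59 (SE 0.23, adjusted p = 0.000106) and Ifitm2 by 1.64 (SE 0.16, adjusted p = 0.00017), where 5.71% of genes were called lower. With PAM from day 2, the values were 74, 45 and 12 for Ifitm3 and 359, 303 and 127 for Ifitm2. Ifitm3 fell by 4.40 (SE 0.51, adjusted p = 0.000535) and Ifitm2 by 2.56 (SE 0.33, adjusted p = 0.000781), where 10.5% of genes were called lower. The line 4 library held the lowest value of both genes in both groups. All 6 group comparisons share the same 4 untreated libraries.

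Neither the start day nor, from day 2, the source of the medium made a called difference by limma. Limma called 0% of genes lower in each of these comparisons. PAM and indirect CAP from day 1 were not set against each other. Between start days, the age of the medium and the time left in fresh medium also differed, and these cannot be told apart. From day 2 against day 1, indirect CAP gave -0.91 (95% interval -2.19 to 0.37) for Ifitm3 and -0.56 (-1.20 to 0.08) for Ifitm2, with 3906 genes at an unadjusted p under 0.05. PAM from day 2 against day 1 gave 0.01 (-1.66 to 1.67) for Ifitm3 and -0.67 (-1.62 to 0.27) for Ifitm2, with 4651 such genes. PAM against indirect CAP from day 2 gave -1.81 (-3.35 to -0.27, adjusted p = 0.523) for Ifitm3, and -0.92 (-1.85 to 0.01, adjusted p = 0.528) for Ifitm2, with 1683 such genes. In this comparison all 3 libraries were lower for both genes and for 13.6% of all genes. By group mean, Ifitm2 was ordered untreated (1431 ± 231), direct CAP 30 min (1076 ± 385), indirect CAP day 1 (701 ± 225), direct CAP 24 h (639 ± 158), indirect CAP day 2 (462 ± 91.1), PAM day 1 (390, from 307 to 491) and PAM day 2 (263 ± 121). Each group overlapped the next. Ifitm3 had the same order except that both PAM groups changed places, and only indirect CAP day 2 (129 ± 48.7) and PAM day 2 (43.7 ± 31) were neighbours without overlap.

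**Figure D2:**
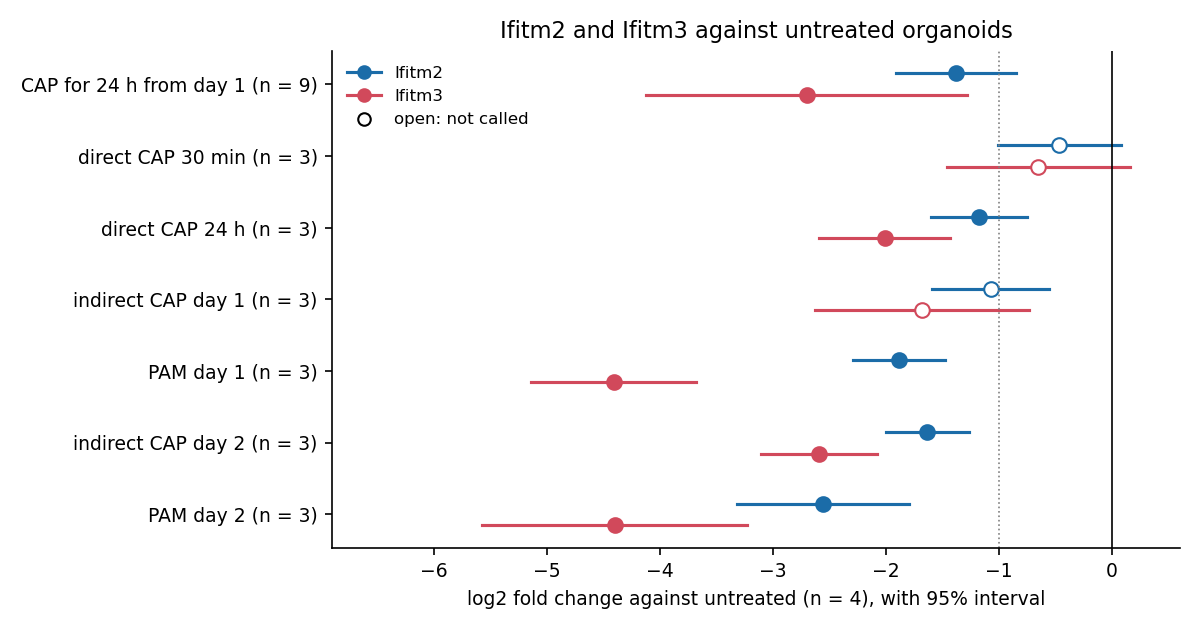
Log2 fold change of Ifitm2 and Ifitm3 in each treated group against the 4 untreated libraries, with 95% intervals (bars), filled points for called changes and a dotted line at -1. Ifitm3 lies further from 0 than Ifitm2 in each comparison, and both PAM groups hold the lowest Ifitm3 values of -4.41 and -4.40.

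The balance between both genes shifted. In the untreated libraries the Ifitm2 value was 1.75 to 2.14 times that of Ifitm3. Direct CAP gave 1.85 to 2.91 times at 30 min and 2.84 to 4.06 times at 24 h, and the ratio was 2.04 to 4.58 times with indirect CAP from day 1 and 7.31 to 20.7 times with PAM from day 1. From day 2 it was 3.07 to 4.38 times with indirect CAP and 4.85 to 10.6 times with PAM. Over the 9 libraries of CAP for 24 h from day 1, the log2 ratio was higher by 1.32 than in the 4 untreated ones (exact permutation test, two-sided p = 0.00559, 0.0168 adjusted over 3 ratios), and 8 of 9 treated libraries exceeded every untreated one. Each line enters the 9 libraries 3 times, so these are not 9 independent replicates. With the treated libraries averaged by line, a choice made after seeing the data, the exact permutation p was 0.0571, the smallest that 3 against 4 allow (adjusted p = 0.0857). Against their own untreated libraries, lines 1, 2 and 4 were higher by 1.26, 1.09 and 1.54. Over the 9 treated libraries the adjusted p was 0.0545 when line 2, 3 or 4 was left out of the untreated group. The ratio compares changes, not which gene changed.

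Ifitm1, an interferon-induced relative that sits mainly at the cell surface, was listed at 8, 5, 7 and 5 in untreated lines 1 to 4. Over all 18 treated libraries it was listed at 4 or less, and at 0 in 6 of them. It failed the filter on low values in every comparison and so has no call. In an exact permutation test added after seeing the data, its 9 values of CAP for 24 h from day 1 (0 to 3) differed from the 4 untreated ones by -1.99 in log2(value + 1) (two-sided p = 0.0028, the smallest that 9 against 4 allow). Averaged by line, the exact permutation p was 0.0571, the smallest that 3 against 4 allow. At such values a difference of a few reads decides the fold change.

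The fall of Ifitm2 and Ifitm3 stood beside rises of 4 other interferon-stimulated genes. Of 36 such genes listed, 31 were tested in CAP for 24 h from day 1 against untreated, but only 18 reached a value of 10 in 3 or more libraries of each group. Among these 18, 4 were called higher and none lower, beside 4.27% and 2.07% of all genes tested. The median difference of the 18 was 0.34 on the log2 scale beside -0.05 over all genes. The 4 were Oasl1, an interferon-induced inhibitor of Irf7 translation, which rose by 2.98 (adjusted p = 4.16e-05), Ddx60, an interferon-induced helicase (2.27, adjusted p = 0.00116), Ifi27 (1.59, adjusted p = 0.00317) and Oas1a, of the oligoadenylate synthetase family that senses double-stranded RNA (1.01, adjusted p = 0.0074). The test also called Oas3, Oasl2 and Xaf1 higher, but these passed the filter only through their treated libraries, with means of 50.4, 59.9 and 12.1 against 6.5, 8 and 2.25 untreated, and are given as a description. Ddx60, Ifi27, Oas1a and Xaf1 were named after their values were seen. The study also showed Ddx60 as raised in these same libraries, so its rise here is not independent evidence. Oasl1 was at 156 to 262 in the 4 untreated libraries, at 666 to 2754 in these 9 libraries and at 1206 to 5994 in the groups started at day 2, without overlap. All treated libraries likewise lay above all untreated ones in 7.16% of genes tested for the 9 libraries. From day 2 the share was 22.7% with indirect CAP and 20.7% with PAM. Isg15, the ubiquitin-like product of interferon signalling, had a difference of 1.70 (adjusted p = 0.0385) at means of 24.8 against 7.25 and was not called.

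In the single groups the other interferon-stimulated genes were called higher in 0 of 23 tested at 30 min of direct CAP, 2 of 23 at 24 h (1.25% of all genes), 1 of 25 with indirect CAP from day 1 (0.831%) and 6 of 23 with PAM from day 1 (4.83%). From day 2 they were called higher in 4 of 26 with indirect CAP (6.2%) and 3 of 25 with PAM (6.82%). Among genes at 10 or more in all 3 treated and at least 3 untreated libraries, they were called higher in 2 of 18 at 24 h of direct CAP, 1 of 17 with indirect CAP and 4 of 17 with PAM from day 1. From day 2 this left 2 of 17 with indirect CAP and 2 of 18 with PAM, shares near the background. Irgm1, an interferon-induced GTPase of autophagy, was called lower in both groups started at day 2 (fell by 1.29, adjusted p = 0.00474, and by 1.73, adjusted p = 0.0017), and Psmb9, an immunoproteasome subunit, fell by 1.21 with PAM from day 2 (adjusted p = 0.00853). Both were named after their values were seen. Oasl1 was called higher in all 5 groups exposed for longer than 30 min.

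Interferon ligands were nearly absent. Of 9 listed, 4 (Ifnb1, Ifna2, Ifng and Ifnz) were at 0 in every library, and only Ifnk was tested, with a difference of 0.08 (adjusted p = 0.906). Of 19 receptors and signalling genes, all tested, 3 were called higher and none lower, with a median of 0.28. Over all genes tested 4.27% were called higher and 2.07% lower. These were Irf7, the factor that amplifies interferon responses (1.45, adjusted p = 0.000545), Socs3, a feedback inhibitor of JAK kinases (1.05, adjusted p = 0.000701), and Ifnlr1, the receptor chain for interferon lambda (1.04, adjusted p = 0.000289). Ifnlr1 was likewise shown as raised by the study from these same libraries. Irf1, an interferon-induced transcription factor, had a difference of 0.47 (adjusted p = 0.0609). The 6 genes that handle IFITM proteins, among them Zdhhc20, a palmitoyl transferase, and Nedd4, a ubiquitin ligase, gave no call, with a median of -0.01.

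**Figure D3:**
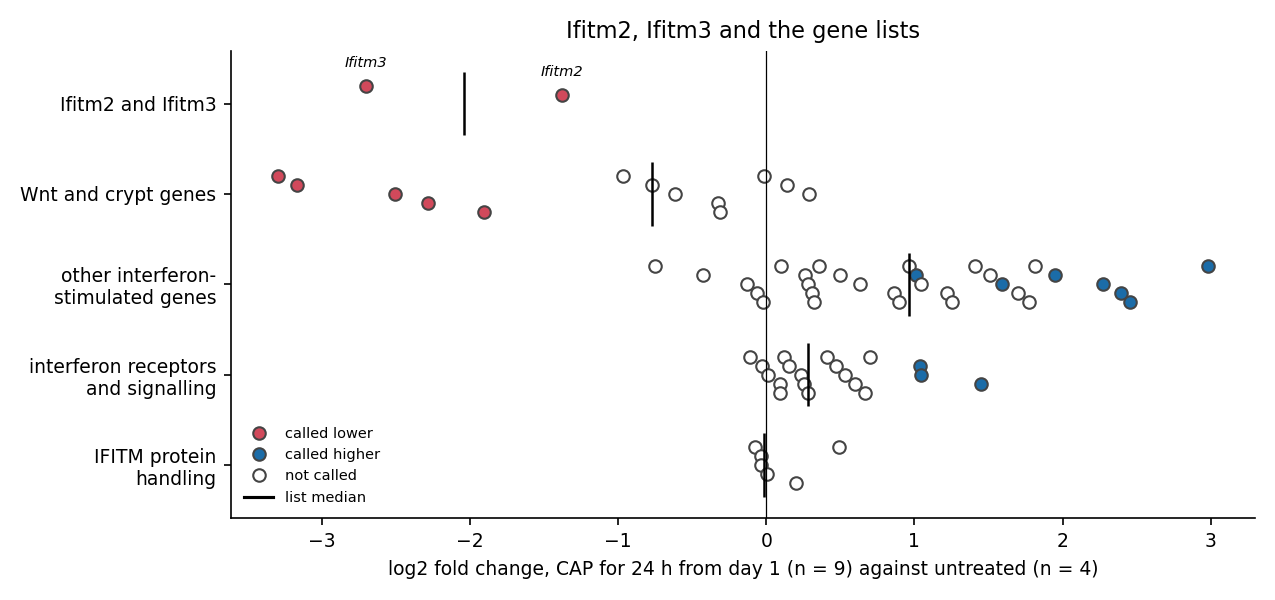
Log2 fold changes of tested genes in CAP for 24 h from day 1 (n = 9) against untreated (n = 4). Each row is 1 list and each point 1 gene, coloured if called. Bars are medians over all tested genes of a list. For the other interferon-stimulated genes the bar is at 0.96 over 31 genes, against 0.34 over the 18 described in the text. Ifitm2 and Ifitm3 lie on the side of the lowest crypt genes. The called points among the other interferon-stimulated genes lie above 0, but Oas3, Oasl2 and Xaf1 passed the filter only through treated libraries. Nkd1, coloured among the crypt genes, passed it only through untreated libraries.

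Of 13 Wnt and crypt genes, 12 reached a value of 10 in 3 or more libraries of each group. Of these 12, 4 were called lower and none higher, beside 2.07% and 4.27% of all genes tested, with a median of -0.70. They were Olfm4, a crypt base marker (fell by 3.30, adjusted p = 0.00626), Lgr5, the R-spondin receptor that marks intestinal stem cells (-3.17, adjusted p = 0.00416), Axin2, a feedback inhibitor of Wnt signalling (-1.91, adjusted p = 0.00356), and Smoc2, a secreted stem cell marker (-2.28, adjusted p = 0.00263). The study named these 4 among its strongly downregulated genes from the same libraries, so their fall here is not independent evidence. Nkd1, another Wnt inhibitor, had an untreated mean of 42.5 and a treated mean of 7 and passed the filter only through its untreated libraries. Sox9, Cd44, Myc and Rnf43, also of this list, gave differences of -0.33, 0.14, 0.29 and -0.02 and were not called. The 4 stem cell markers Lgr5, Olfm4, Smoc2 and Ascl2 summed to 28399 to 33368 untreated, 17213 to 26825 at 30 min and 4515 to 8518 at 24 h of direct CAP, 4840 to 12267 with indirect CAP from day 1 and 770 to 1998 with PAM from day 1. From day 2 they summed to 1951 to 2662 with indirect CAP and 650 to 1925 with PAM. Of 4 Paneth cell markers, 2 were called lower in CAP for 24 h from day 1, beside 2.07% of all genes tested. In these bulk libraries, fewer cells of a type and less RNA per cell cannot be told apart, and the part of stem cell content in the Ifitm values was not tested.

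Over the 22 libraries the pattern of Ifitm3 was most like those of 9130208D14Rik (Pearson r of log2 values 0.983), Smoc2 (0.977), Gm45912 (0.976), Gm4070 (0.97) and Gm8995 (0.97), among 13196 genes with a mean value of 50 or more. Lgr5 gave 0.966, Ifitm2 0.955 and Oasl1 -0.885. The most unlike were Actn4 (-0.967), Actb (-0.965) and Itga3 (-0.963), genes of the actin cytoskeleton and cell adhesion. For Ifitm2 the most like were the overlapping Gm45717 (r rounding to 1), Lfng, a modifier of Notch receptors (0.984), Ahcy (0.984), Rcbtb1 (0.983) and Lhpp (0.983), and the most unlike Adap1 (-0.978), Mcu (-0.976) and 4930599N23Rik (-0.972). These are descriptions across libraries that share lines and treatments. The r of Ifitm3 with Smoc2 was 0.982 after line means were removed.

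**Figure D4:**
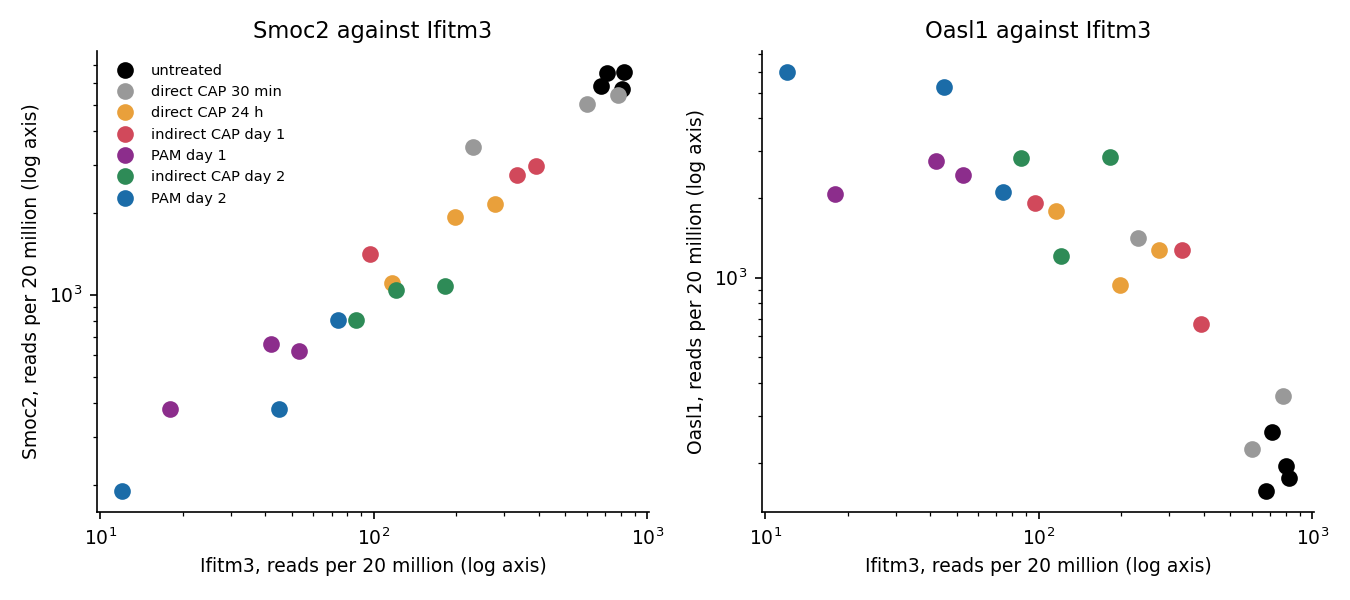
Smoc2 (left) and Oasl1 (right) against Ifitm3 in the 22 libraries, in reads per 20 M on log axes, coloured by group. Smoc2 falls along with Ifitm3 from the untreated libraries to PAM (r 0.977), and Oasl1 runs the other way (r -0.885). The direct CAP 30 min library of line 4, at an Ifitm3 value of 231, lies below the untreated libraries. It falls within the range of direct CAP for 24 h (116 to 276).

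No neighbour of the locus was called except the overlapping Gm45717. Within 200 kb of the 3 genes, 39 genes of the table were annotated and 24 were tested in CAP for 24 h from day 1 against untreated. The calls were 3 lower, Ifitm2, Ifitm3 and the overlapping Gm45717 (-1.38), and 0 higher. Nlrp6, an inflammasome receptor of the gut epithelium differed by -0.90 (adjusted p = 0.0048) at means of 4555 against 8161, just short of the minimum fold change. Lmntd2 (0.75, adjusted p = 0.00248), Pkp3 (0.36, adjusted p = 0.00399) and Ric8a (0.36, adjusted p = 0.00343) had small differences upwards. The remaining tested neighbours, Cyp2e1, Gm45785, Urah, C330022C24Rik, Bet1l, Sirt3, Psmd13, Gm15542, Pgghg, B4galnt4, Sigirr, Ano9, Ptdss2, Rnh1, Gm5905, Hras and Lrrc56, had adjusted p from 0.0315 to 0.951 and no call.

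**Figure D5:**
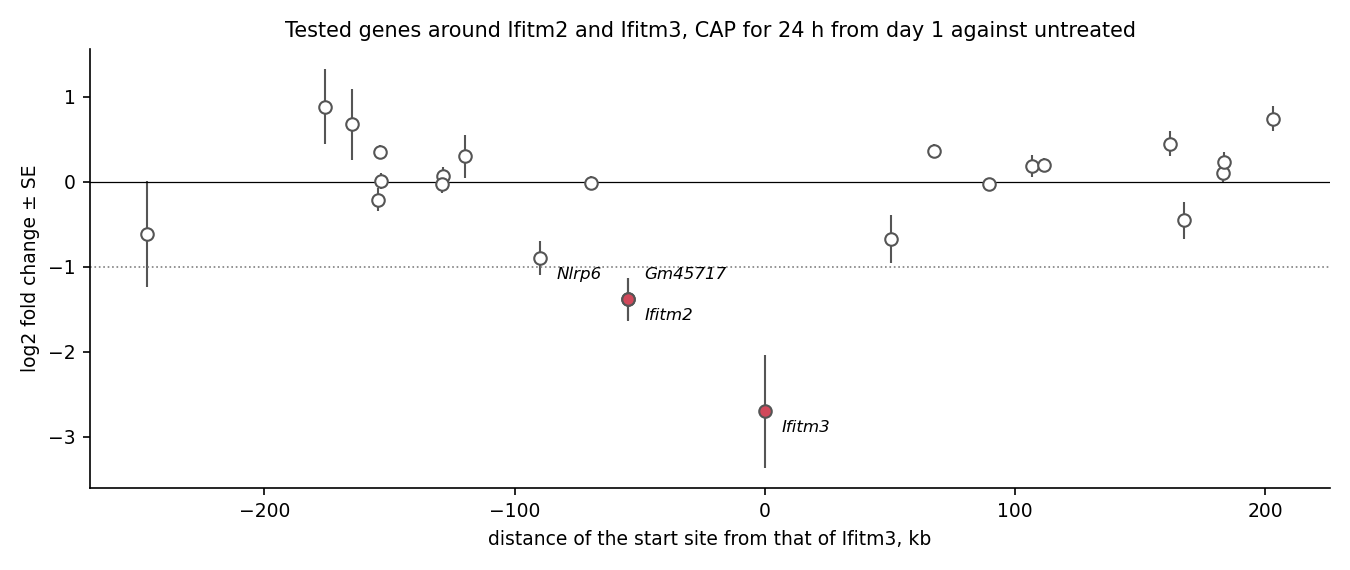
Log2 fold change ± SE of the 24 tested genes within 200 kb, in CAP for 24 h from day 1 against untreated, by the distance of their start site from that of Ifitm3 in kb, with called genes filled and a dotted line at -1. Ifitm3 at -2.70 and Ifitm2 with Gm45717 at -1.38 stand below the neighbours, of which Nlrp6 at -0.90 comes closest.

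The lines differed in depth of response. Line 4 had the largest fall of Ifitm3 against its own untreated library in 5 of 6 groups and of Ifitm2 in 3 of 6. In line 4 the Ifitm3 value relative to its own untreated library was 32.5% at 30 min and 16.3% at 24 h of direct CAP, 13.6% with indirect CAP from day 1 and 1.69% with PAM from day 2. In the same groups line 2 was at 116% and 40.9% for these times of direct CAP, 49.5% with indirect CAP from day 1 and 6.67% with PAM from day 2, where line 1 was higher at 9.02%. In the 5 groups exposed for longer than 30 min, all 30 values of Ifitm2 and Ifitm3 were below the untreated library of the same line. This follows from each of them lying below all 4 untreated libraries and is not further evidence. All treated libraries likewise lay below all untreated ones in 19.1% of genes tested for direct CAP 24 h. The share was 17.7% for indirect CAP and 29.7% for PAM from day 1, and 25.8% and 32.6% from day 2. The untreated Ifitm3 values spanned 675 to 820, and the line 1 and 2 shares depend on the labels doubted above. The Ifitm3 value of line 2 at 30 min, 780, lay above the untreated 675 of line 2 but below the 820 of line 1. Untreated Ifitm2 was 1756 in line 1 and 1291 in line 2, so its 3 of 6 also depends on these labels. Lines 1 and 2 differ from line 4 in passage and animal and, per the paper's methods, in sex (male against female), which cannot be told apart here.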

How the data were processed

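RNA-seq reads of 22 libraries of mouse duodenal organoids were trimmed, aligned and counted by the authors; the submitters' processing notes name Trimmomatic 0.36, STAR 2.5.3a and HTSeq 0.9.1, and GRCm38.p4, and the study names the Ensembl annotation release 90. HTSeq's overlap and strand settings are not given in the sources used here. The authors deposited 1 score per gene and library, counts scaled to 20 M per library and rounded up. Raw counts were not analysed here, so count models were not used.

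Values were fitted as log2(value + 1) with limma 3.58.1 (R 4.3.3) with a mean-variance trend, over genes that reached a value of 10 in 3 or more fitted libraries, with Benjamini-Hochberg adjustment over all tested genes. Fold changes on this scale understate those of low genes. In 3 designs simulated with independent libraries and large changes in well expressed genes, all 200 changed genes were found. The simulation had 1 fixed spread and no line effect. It checks that the code runs correctly and does not give the power in these data. Exact permutation tests, sequence searches and figures used Python 3.11.15, scipy 1.17.1 and matplotlib 3.10.9, with GENCODE release 21 (99.7% of genes found).

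The 3 members, their relatives, the gene lists and motifs were chosen with earlier results of these data known. The named genes were the members and relatives, the tested neighbours, up to 3 largest rises and falls past the threshold per list, and the 5 most and 3 least like genes. Libraries of 1 number come from 1 animal's line, and deviations of same-line libraries from their group means correlated at a median of 0.536 (60 of 63 pairs over 0.1). Limma p-values set a mean difference against the spread between libraries. They treat libraries of the same line as unpaired, except with the replicate block. In CAP for 24 h from day 1 each of 3 lines enters 3 times, and the spread includes that between treatments. The replicate block drops the untreated library of line 3 from the contrast. Alternatives were another scaling, pseudocount, filter, set of groups, block, threshold, and leaving out each library. Values of some genes in the lists are not reported here.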

Additional observations from a re-analysis of the deposited data

Results flagged for a closer look

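Ifitm3 differed between direct CAP for 24 h and direct CAP for 30 min by -1.36 with the replicate block (limma adjusted p = 0.00451), with values of 198, 276 and 116 against 600, 780 and 231, lower in 3 of 3 lines. Without the block the adjusted p was 0.207. PAM from day 1 and direct CAP for 24 h differed in Ifitm3 by -2.40 with the replicate block (adjusted p = 0.00604), lower in 3 of 3 lines, and without the block the adjusted p was 0.181. Axin2 was at 5951 in the untreated library labelled line 1 and at 4158, 4349 and 4316 in the other untreated libraries, a gap that Dixon's test singles out. About 1 in 20 groups is singled out by chance.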

How the results depend on the processing

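Under 208 values of Ifitm2 and Ifitm3 against untreated, over 7 comparisons and all alternatives, none was above 0. With the replicate block, Ifitm3 in CAP for 24 h from day 1 against untreated was -2.67 and lost its call, and Ifitm3 gained a call at -1.36 for direct CAP 24 h against 30 min and at -2.40 for PAM day 1 against direct CAP 24 h; the block changed no other call of Ifitm2 or Ifitm3. It moved the number of genes called from 0 to 200 and from 0 to 58 there, and from 2 to 623 for indirect CAP day 2 against day 1. With all 7 groups in one fit, direct CAP 24 h lost both calls (-1.18 and -2.01). With the threshold at 0.05 and any fold allowed, indirect CAP day 1 gained both (-1.07 and -1.68). With the untreated libraries of lines 3 and 4 only, chosen after seeing the data, calls were lost in CAP for 24 h from day 1 (-1.29 and -2.71), direct CAP 24 h (-1.09 and -2.02) and PAM day 2 (-2.47 and -4.41, where 1 gene was called in all, against 3063), and kept for PAM day 1 and indirect CAP day 2. With these libraries left out, fewer samples remain.

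Leaving out 1 library at a time gave -2.92 to -2.38 for Ifitm3 in CAP for 24 h from day 1, where 8 of 13 lost the call, -1.34 to -0.98 for Ifitm2 (6 of 7 lost) and -2.30 to -1.68 for Ifitm3 (5 of 7 lost) after direct CAP 24 h, -2.05 to -1.05 for Ifitm3 with indirect CAP day 1 (1 of 7 gained), 1.06 to 1.47 for the log2 ratio of Ifitm2 to Ifitm3 (3 of 13 lost), and -0.71 to -0.16 for Ifitm2 and -1.01 to -0.13 for Ifitm3 after direct CAP 30 min, with no call. Averaging the treated libraries by line left the log2 ratio at 1.32 and its adjusted p at 0.0857, since 3 against 4 cannot pass the threshold. With a pseudocount of 10, the ratio of Ifitm1 to Ifitm3 was 1.99 against 0.71 and that of Ifitm1 to Ifitm2 turned from -0.61 to 0.80, since Ifitm1 lies below that pseudocount. Quantile normalization moved the median of all genes by 0.12 with PAM day 2 and by less than 0.1 in the other comparisons against untreated. Genes called ranged from 0 to 2995 for direct CAP 24 h (376 as reported), 0 to 3662 for indirect CAP day 1 (233), both 0 with the untreated libraries of lines 3 and 4 only, and 0 to 882 for PAM day 2 against PAM day 1 (0). Values near 10 rest on about as many reads.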
